A study of Homo sapiens with 6 samples.

Results

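The GADD45 family has 3 members in human cells, GADD45A, GADD45B and GADD45G, and all 3 were taken by symbol from the 18701 genes named on the arrays. GADD45A was measured by 6 exon-level probe sets, GADD45B by 8 and GADD45G by 9, and the gene value on an array was the median of these log2 signals. The cells were HT29-tsp53, a line derived from the human colorectal adenocarcinoma line HT-29 that expresses a temperature-sensitive murine p53 transgene, given as V135A. RNA from 6 samples was hybridised to Affymetrix Gene 1.0 ST arrays, in 3 groups of 2. The p53 off group was kept at the restrictive temperature, 38 °C in most labels and 37 °C in others. The p53 on group spent 16 h at 32 °C, where the transgenic p53 is active. The p53 on then off group, called recovery here, spent 16 h at 32 °C and then 6 h back at the restrictive temperature, although 1 label of that group names 32 °C for the last step. Each group has 1 array from experiment 1 and 1 from experiment 2. All groups carry the transgene, and no line without it was shifted to 32 °C, so the activity of p53 and the change of temperature cannot be told apart. The promoter of the transgene and whether the line is a single clone are not stated in the labels.

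GADD45 proteins are small acidic nuclear proteins without enzyme activity that act by binding others. They bind PCNA and p21, they inhibit the CDK1 and cyclin B1 kinase at the G2/M boundary, and they activate the kinase MTK1 (MAP3K4) upstream of p38 and JNK. GADD45A is a classic p53 target that carries a p53 response element in an intron, and its mRNA is known to be short-lived in unstressed cells. GADD45B is known as a target of NF-kB and TGF-beta signalling, and GADD45G as a gene induced by cytokines and differentiation cues. By its title, the series asks about mRNA turnover in the p53 response. The arrays measured transcript levels only, not half-lives.

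The genes lie apart in the genome, GADD45A on chromosome 1, GADD45B on chromosome 19 and GADD45G on chromosome 9. RefSeq promoter sequence (GRCh38.p14) was matched for GADD45B and GADD45G, and no sequence is shown for GADD45A. The 250 bases upstream of the start site are shown for both, as the members for which a sequence was given. Capitals mark matches, searched on both strands and with no overlap between motifs. The E-box was searched as CACGTG. The CCAAT box was searched by the letters of its name, and the TATA box as TATAAA. A variant of the TATA box was searched as TATATA. The GADD45B window is chr19:2475877-2476126 on the plus strand and the GADD45G window is chr9:89604762-89605011 on the plus strand.
GADD45B: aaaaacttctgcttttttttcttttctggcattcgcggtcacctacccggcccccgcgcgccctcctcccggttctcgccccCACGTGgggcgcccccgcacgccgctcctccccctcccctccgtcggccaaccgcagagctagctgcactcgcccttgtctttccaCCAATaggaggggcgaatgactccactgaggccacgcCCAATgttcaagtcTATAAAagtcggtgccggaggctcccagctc
GADD45G: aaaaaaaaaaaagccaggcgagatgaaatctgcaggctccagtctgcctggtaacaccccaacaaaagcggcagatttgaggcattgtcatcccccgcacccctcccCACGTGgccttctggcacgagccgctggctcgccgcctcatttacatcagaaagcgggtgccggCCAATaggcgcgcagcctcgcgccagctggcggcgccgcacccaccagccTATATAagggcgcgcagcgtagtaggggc
Both windows were rich in G and C, at 63.2% for GADD45B and 61.6% for GADD45G. Both held an E-box, which 6.34% of 35116 promoter windows of this length hold, and its first base lay at -168 from the start in GADD45B and at -143 in GADD45G. A CCAAT box, held by 32.0% of windows, lay at -82 and -45 in GADD45B and at -79 in GADD45G. GADD45B had TATAAA, held by 10.7% of windows, at -31. GADD45G had TATATA, held by 3.73% of windows, at -29. The longest run of letters the windows shared was the 10 bases CCCCACGTGG around the E-box. Neither window matched the p53 consensus decamer, which 5.57% of windows hold. These matches describe letters in the windows and were not tested for binding.

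The 6 arrays were alike in scale, with column medians between 5.24 and 5.31 on the log2 scale, so values were used as deposited. All 9 listed colon epithelial markers (EPCAM, CDH1, KRT8, KRT18, KRT20, VIL1, CDX1, CDX2 and LGALS4) had mean signals above the filter on dim genes, a log2 signal of 3.62, with means from 4.35 to 12.46. Of the markers of other cell types, 4 of 6 for fibroblasts and 3 of 5 measured for leukocytes also passed that filter, with means up to 5.57 and 6.15. The summed log2 levels of these lists in p53 off, p53 on and recovery were 79.42, 81.24 and 80.47 for colon epithelium, 22.50, 23.19 and 23.04 for fibroblasts, and 21.20, 21.66 and 22.13 for leukocytes. All 3 sums were higher in p53 on than in p53 off, and their part in the results was not tested. After the filter 14025 genes were tested with limma over all 6 arrays, and all 3 GADD45 genes passed it. Calls below are differences whose Benjamini-Hochberg adjusted p, over all genes tested, was under 0.05. With 2 arrays against 2, an exact two-sided permutation test cannot go below p = 0.333. The labels do not say how the experiments were separated, so p-values measure the spread between these arrays.

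GADD45A rose strongly with p53 on, and GADD45B and GADD45G were not called. The log2 signal of GADD45A was 6.50 and 6.71 in p53 off, 10.02 and 10.13 in p53 on, and 6.99 and 6.93 in recovery, for experiments 1 and 2 in turn. Both p53 on arrays lay far above the other 4 arrays, and p53 on lay above p53 off without overlap for 22.6% of all genes. The share of genes with p53 on above all 4 other arrays was not counted. Against p53 off, GADD45A was 11.1-fold higher in p53 on, a log2 difference of 3.47 ± 0.20 (standard error, n = 2; limma, adjusted p = 0.00174, 95% interval 3.01 to 3.94). The rise was 11.5-fold in experiment 1 and 10.7-fold in experiment 2. In this comparison 0.898% of the 14025 genes were called higher and 0.585% lower, and GADD45A had the rank 7 from the top by log2 difference. It was called in each of the 6 fits that left out 1 array, with adjusted p up to 0.0492.

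**Figure D1:**
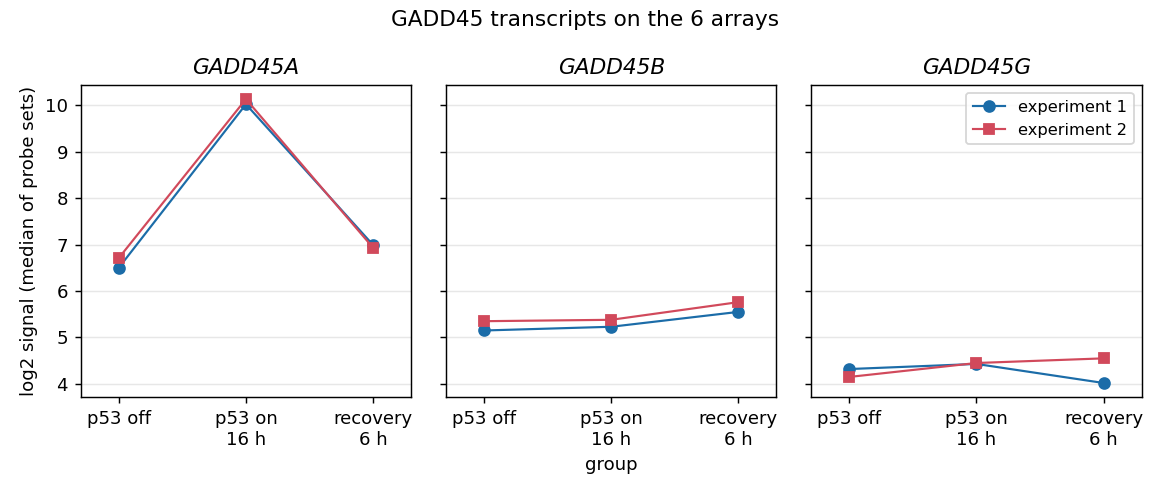
The vertical axis gives the log2 signal of each GADD45 gene (median of its probe sets) and the horizontal axis the group, with circles for experiment 1 and squares for experiment 2, joined within an experiment. GADD45A stands at 10.02 and 10.13 in p53 on and under 7 on the other 4 arrays, while GADD45B and GADD45G move by less than 1 log2 unit; heights are not comparable between genes.

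The single probe sets of GADD45A moved together. All 6 were higher in p53 on in both experiments, a pattern that 29.1% of the 224320 single-symbol probe sets showed, with mean log2 differences from 2.61 to 3.66. The largest was that of probe set 7902230, at 6.58 and 6.60 in p53 off, 10.22 and 10.28 in p53 on, and 7.21 and 7.0 in recovery. The brightest, 7902232, had 8.38 and 8.48 in p53 off, 11.35 and 11.37 in p53 on, and 8.99 and 8.42 in recovery. The dimmest, 7902234, had 1.13 and 1.54 in p53 off, 3.99 and 3.90 in p53 on, and 2.28 and 1.45 in recovery. Its p53 off and recovery signals lay under the dim filter and were not shown to be above background, so its differences and shares are uncertain. These probe sets read parts of the same transcript and are not independent. Tested singly over all probe sets with limma, 0 of the 224320 were called (0.0%), and 20506 (9.14%) had an unadjusted p under 0.05. The 6 GADD45A probe sets had unadjusted p between 1.42e-05 and 0.000534 and adjusted p between 0.0938 and 0.209, or between 0.201 and 0.218 when experiments were paired as a replicate block. With an intensity trend in the fit, 5 of the 6 were called, against 0.066% of all probe sets.

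**Figure D2:**
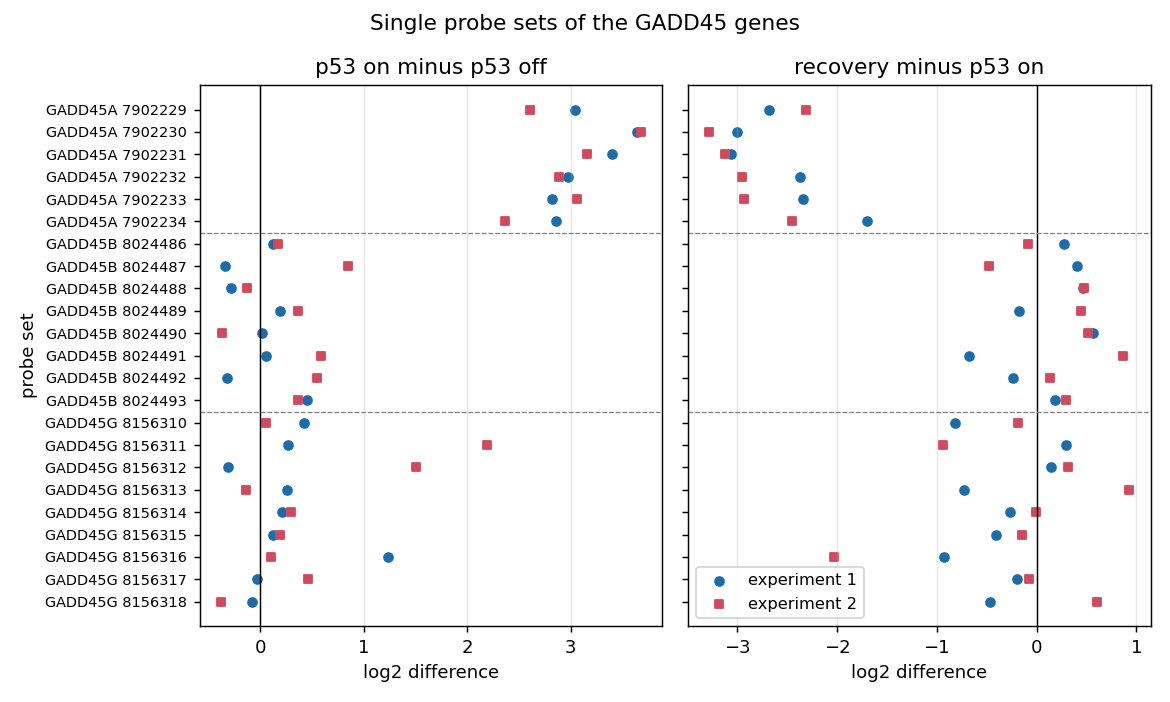
Each row is 1 probe set, named by gene and probe set number, and the horizontal axis gives the log2 difference within experiment 1 (circles) and experiment 2 (squares), on the left for p53 on minus p53 off and on the right for recovery minus p53 on. All 6 GADD45A probe sets lie right of 0 on the left and left of 0 on the right, while those of GADD45B and GADD45G scatter around 0.

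Most of the GADD45A rise was gone after 6 h of recovery. Against p53 on, GADD45A was 8.68-fold lower in recovery, a log2 difference of -3.12 ± 0.20 (n = 2; limma, adjusted p = 0.00679, 95% interval -3.58 to -2.65). The fall was 8.19-fold in experiment 1 and 9.21-fold in experiment 2. In this comparison 0.285% of genes were called lower and 0.143% higher, and GADD45A had the rank 5 from the bottom. All 6 of its probe sets fell in both experiments, as 28.1% of all probe sets did, by mean log2 differences of -3.14 to -2.08. With the intensity trend, 1 of them was called lower, against 0.00446% of all probe sets. Of 6 fits that left out 1 array, GADD45A was called in 1, without p53 on array 1 (adjusted p = 0.0438). Adjusted p was 0.0503 without either p53 off array or with only the groups compared, 0.0592 without p53 on array 2, 0.0978 without recovery array 1 and 0.0895 without recovery array 2, while the log2 difference stayed between -3.17 and -3.06 in the 6 fits.

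GADD45A did not reach the p53 off level on either recovery array, but the remainder was not called. On the log2 scale 13.8% of the rise was left in experiment 1 and 6.36% in experiment 2. On the linear scale, 2 raised to the log2 signal, 3.83% and 1.68% of the rise were left. For the 5 brighter probe sets, the share of the log2 rise left ran from 9.94% to 20.3% in experiment 1 and from -2.06% to 11.5% in experiment 2. The negative share is that of 7902232, which ended below p53 off in experiment 2. Against p53 off, GADD45A in recovery differed by 0.35 ± 0.20 (1.28-fold, n = 2; limma, adjusted p = 0.987, 95% interval -0.11 to 0.82), with 0.49 and 0.22 within the experiments. Recovery lay above p53 off without overlap for 20.4% of genes, and limma called 0.0285% of genes in this comparison.

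GADD45B was close to level between p53 off and p53 on and somewhat higher in recovery. Its log2 signal was 5.15 and 5.35 in p53 off, 5.23 and 5.38 in p53 on, and 5.55 and 5.76 in recovery. The p53 off and p53 on arrays overlapped, and both recovery arrays lay above all 4 others. Between p53 on and p53 off the log2 difference was 0.06 ± 0.20 (n = 2; limma, adjusted p = 0.943), and its 95% interval, -0.43 to 0.54, leaves out a rise of the size seen for GADD45A. Recovery was higher than p53 on by 0.35 ± 0.20 (adjusted p = 0.577, 95% interval -0.13 to 0.83) and higher than p53 off by 0.41 ± 0.20 (1.33-fold, adjusted p = 0.970, 95% interval -0.08 to 0.89), neither of which was called. The difference from p53 off was 0.41 in each experiment. Recovery lay above p53 on without overlap for 21.3% of genes, and above p53 off for 20.4%. The share of genes with recovery above all 4 other arrays was not counted.

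Its probe sets did not all follow that course. Against p53 off, 6 of the 8 GADD45B probe sets were higher in recovery in both experiments, as 30.3% of all probe sets were, and the other 2 changed sign between the experiments. Against p53 on, 3 of the 8 were higher in recovery in both experiments, as 31.6% of all probe sets were, and the other 5 changed sign. The most even was 8024493, at 4.98 and 5.00 in p53 off, 5.43 and 5.36 in p53 on, and 5.62 and 5.65 in recovery. The brightest on average, 8024492, had 7.40 and 6.80 in p53 off, 7.08 and 7.35 in p53 on, and 6.84 and 7.48 in recovery, with no order of the groups shared by the experiments.

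From p53 on to recovery, the gene value of GADD45G moved in opposite directions in experiments 1 and 2. Its log2 signal was 4.32 and 4.15 in p53 off, 4.43 and 4.45 in p53 on, and 4.02 and 4.55 in recovery. The p53 on arrays lay just above the p53 off arrays, an order without overlap that 22.6% of genes showed, and the recovery arrays held both the lowest and the highest of the 6 values. The log2 difference between p53 on and p53 off was 0.20 ± 0.24 (n = 2; limma, adjusted p = 0.767, 95% interval -0.36 to 0.76). Recovery minus p53 on was -0.41 in experiment 1 and 0.09 in experiment 2 (limma, -0.16 ± 0.24, adjusted p = 0.899), and recovery minus p53 off was -0.30 and 0.39 (0.05 ± 0.24, adjusted p = 0.999). Against p53 off, 5 of 9 probe sets were higher in p53 on in both experiments, as 29.1% of all probe sets were. In the same comparison 1 was lower in both, as 29.6% of all probe sets were. Probe set 8156311 had the largest mean difference there, 1.23, but it came mostly from 1 array. Its signals were 3.09 and 2.92 in p53 off, 3.36 and 5.10 in p53 on, and 3.65 and 4.16 in recovery. The brightest, 8156317, had 7.48 and 7.58 in p53 off, 7.45 and 8.04 in p53 on, and 7.25 and 7.95 in recovery, with experiment 2 above experiment 1 in each group.

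**Figure D3:**
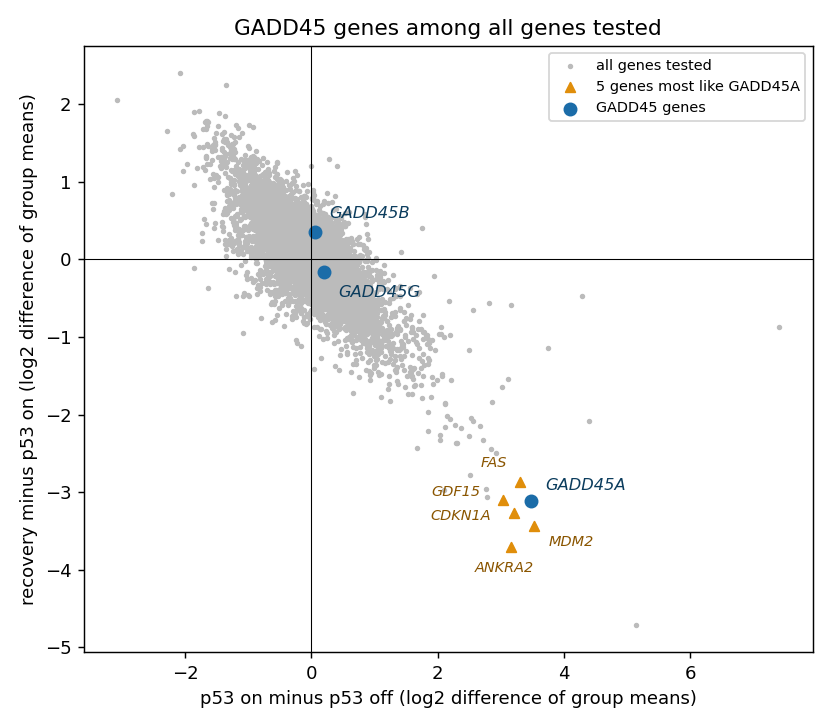
Each point is 1 of 14025 genes, with the log2 difference p53 on minus p53 off on the horizontal axis and recovery minus p53 on on the vertical axis; large circles are the GADD45 genes and triangles the 5 genes nearest to GADD45A by within-experiment differences. GADD45A lies at 3.47 and -3.12, far from GADD45B at 0.06 and 0.35 and GADD45G at 0.20 and -0.16; the axes share the p53 on arrays, so the downward slope of the cloud is built in.

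The genes whose course was most like that of GADD45A were other known p53 targets. Likeness was the Euclidean distance over 4 within-experiment log2 differences (p53 on minus p53 off and recovery minus p53 on, in both experiments), ranked over 12810 other genes. The nearest was MDM2, the ubiquitin ligase of p53, at a distance of 0.48. It was followed by FAS, a death receptor, at 0.49, CDKN1A, which encodes the CDK inhibitor p21, at 0.62, GDF15, a stress cytokine, at 0.74, and ANKRA2, an ankyrin repeat protein, at 0.95. For recovery minus p53 off the log2 difference was 0.09 for MDM2, 0.44 for FAS and -0.06 for CDKN1A. It was -0.06 for GDF15 and -0.55 for ANKRA2, beside 0.35 for GADD45A. None of the 6 was called (limma, adjusted p from 0.987 to 0.999), where limma called 0.0285% of all genes. Recovery minus p53 off is the sum of the differences used for the ranking, so the choice of near genes largely fixed these values. A shared return toward p53 off was not tested apart from that choice. ANKRA2 stood at 3.47 and 2.52 in p53 off, 6.57 and 5.73 in p53 on, and 2.96 and 1.93 in recovery, so its low levels lay under the dim filter.

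Genes that work with or upstream of the GADD45 proteins were counted in 5 lists, to be read beside the shares of all genes called. Over all genes, in either direction, limma called 1.48% for p53 on minus p53 off and 0.428% for recovery minus p53 on, and none of the list members was among the genes called for recovery minus p53 off. With the replicate block these shares of all genes were 11.5% and 7.24%. An unadjusted p under 0.05 was reached by 15.4% and 12.3% of all genes. Of 8 binding and cell cycle partners, CDKN1A rose with p53 on and fell in recovery, and it was the only call (median difference of the list -0.27 for p53 on minus p53 off, against 0.02 over all genes). CDKN1A stood at 4.83 and 4.99 in p53 off, 8.32 and 7.91 in p53 on, and 4.92 and 4.78 in recovery. Its differences were 3.21 ± 0.22 (limma, adjusted p = 0.00334) and then -3.26 ± 0.22 (adjusted p = 0.00774). Without 1 array, CDKN1A was called in 4 of 6 fits for the rise, not without p53 off array 1 (adjusted p = 0.0609) or 2 (0.0649). It was called in 2 of 6 for the fall, not without either p53 off array (0.0503) or recovery array 1 (0.0978) or 2 (0.0965). With the replicate block, under which 11.5% of all genes were called, 2 others fell with p53 on. These were CDK1, the mitotic kinase that GADD45 proteins inhibit, listed under its older symbol CDC2, at -0.91 (adjusted p = 0.551, block 0.0202), and AURKA, a mitotic kinase bound by GADD45A, at -0.95 (adjusted p = 0.0687, block 0.00979), both named with their values known. CDC2 stood at 7.29 and 6.17 in p53 off, 6.30 and 5.34 in p53 on, and 6.69 and 5.17 in recovery. Its p53 off and p53 on arrays overlapped, and the standard error of their difference was 0.60 without the block. AURKA stood at 8.59 and 8.52 in p53 off, 7.59 and 7.62 in p53 on, and 7.76 and 7.72 in recovery. Its recovery arrays stayed near p53 on, at -0.82 ± 0.19 against p53 off (limma, adjusted p = 0.653, block 0.0835), whereas GADD45A moved back toward p53 off. Over the 8 partners, recovery minus p53 off ran from -1.01 to 0.04, with a median of -0.56 against 0.03 over all genes. Of these 8, limma called 0 and gave 3 an unadjusted p under 0.05, against 5.32% of all genes. CCNB1, which encodes cyclin B1, was at 10.03 and 10.01 in p53 off, 9.24 and 9.36 in p53 on, and 8.56 and 9.46 in recovery. It was not called for p53 on minus p53 off (limma, adjusted p = 0.333) or for recovery minus p53 off (-1.01, adjusted p = 0.845). PCNA, the sliding clamp of replication, lay between 8.04 and 8.15 on all 6 arrays. For recovery minus p53 on the block called 1 partner beside CDKN1A, CCNB2, which encodes cyclin B2. It stood at 8.42 and 8.06 in p53 off, 8.37 and 7.78 in p53 on, and 7.65 and 7.13 in recovery, a difference of -0.69 from p53 on (limma, adjusted p = 0.416, block 0.0473), and was named with its values known.

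Among the 12 kinases of the p38 and JNK cascade limma called 0 in each comparison, with 2 at an unadjusted p under 0.05 for p53 on minus p53 off, where 15.4% of all genes reached it, and 2 for recovery minus p53 on, where 12.3% did. MAP3K4, the kinase that GADD45 proteins bind and activate, had the smallest p, with log2 signals of 7.45 and 7.77 in p53 off, 6.52 and 6.83 in p53 on, and 7.04 and 7.11 in recovery. It differed by -0.94 in each experiment (adjusted p = 0.106, block 0.0122). MAP3K5, the stress kinase ASK1, differed by -1.09 ± 0.35 (adjusted p = 0.199, block 0.0202) and was named with its values known. These were the 2 kinases that fell with p53 on under the block, where 11.5% of all genes were called. In recovery minus p53 on the block called 1 kinase higher and 2 lower, against 7.24% of all genes. MAP3K5 was higher by 0.91 (adjusted p = 0.345, block 0.0497). MAP2K4, a kinase that activates JNK, was at -0.98 (adjusted p = 0.431, block 0.0487), and MAPK9, which encodes JNK2, was at -0.74 (adjusted p = 0.455, block 0.0356), both named with their values known.

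Of 10 tested genes linked to GADD45-mediated DNA demethylation and excision repair, limma called 0 in each comparison, with 2 at an unadjusted p under 0.05 for p53 on minus p53 off, against 15.4% of all genes. TDG, the thymine DNA glycosylase that removes oxidised methylcytosine, stood at 5.98 and 5.75 in p53 off, 7.08 and 6.74 in p53 on, and 6.17 and 6.26 in recovery. Its difference of 1.05 ± 0.22 was called with the block alone (adjusted p = 0.0769, block 0.00954, under which 11.5% of all genes were called).

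The list of transcriptional regulators of GADD45 genes held 17 tested genes, among them TGFB1, which encodes a signalling protein and not a transcription factor. Of these genes limma called 1 lower with p53 on and 0 higher, against 0.585% and 0.898% of all genes. Their differences ran from -1.43 to 0.72 (median -0.15, against 0.02 over all genes). An unadjusted p under 0.05 was reached by 3 of them, against 15.4% of all genes. The gene called was BRCA1, a repair protein that acts at the GADD45A promoter. It stood at 7.24 and 7.51 in p53 off, 6.08 and 5.81 in p53 on, and 7.39 and 7.04 in recovery. BRCA1 was 2.69-fold lower in p53 on (-1.43 ± 0.23, limma, adjusted p = 0.0438), and it was called in 0 of the 6 fits without 1 array. Its later difference of 1.27 ± 0.23 between recovery and p53 on was called with the block alone (adjusted p = 0.0868, block 0.0102). NFYA, a subunit of the factor that binds CCAAT boxes, was the other regulator the block called there, where it called 7.24% of all genes. It stood at 6.77 and 6.51 in p53 off, 6.15 and 6.16 in p53 on, and 7.01 and 7.01 in recovery, 0.85 above p53 on (limma, adjusted p = 0.144, block 0.0254), and was named with its values known. The NF-kB subunit genes NFKB1 and RELA, upstream of GADD45B, were named with their values known. They differed by -0.30 and 0.28 between p53 on and p53 off (limma, adjusted p = 0.634 and 0.695). Recovery minus p53 on was 0.24 and -0.13 (adjusted p = 0.807 and 0.931).

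Of 12 measured RNA-binding and nonsense-mediated decay factors, limma called 0 in each comparison. It called 1.48%, 0.428% and 0.0285% of all genes in the 3 comparisons, shares at which 0 of 12 does not set the list apart. An unadjusted p under 0.05 was reached by 0 of these factors, against 15.4%, 12.3% and 5.32% of all genes. With the block 0 of these factors were called, against 11.5%, 7.24% and 0.599% of all genes. Their log2 differences lay between -0.20 and 0.28 for p53 on minus p53 off, between -0.36 and 0.21 for recovery minus p53 on, and between -0.42 and 0.46 for recovery minus p53 off. HNRNPD, which encodes AUF1, and TIAL1, which encodes TIAR, are known to bind GADD45A mRNA and to hold its expression down. HNRNPD stood at 10.02 and 9.56 in p53 off, 9.80 and 9.51 in p53 on, and 9.52 and 9.23 in recovery. TIAL1 stood at 7.57 and 7.52 in p53 off, 7.39 and 7.56 in p53 on, and 7.31 and 7.04 in recovery, and both were named with their values known. For recovery minus p53 on, the step in which GADD45A fell, HNRNPD differed by -0.28 (95% interval -0.87 to 0.30) and TIAL1 by -0.30 (95% interval -0.79 to 0.18). SMG6, a nuclease of nonsense-mediated decay, had the smallest p of the list for p53 on minus p53 off, at 0.27 ± 0.21 (adjusted p = 0.621).

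**Figure D4:**
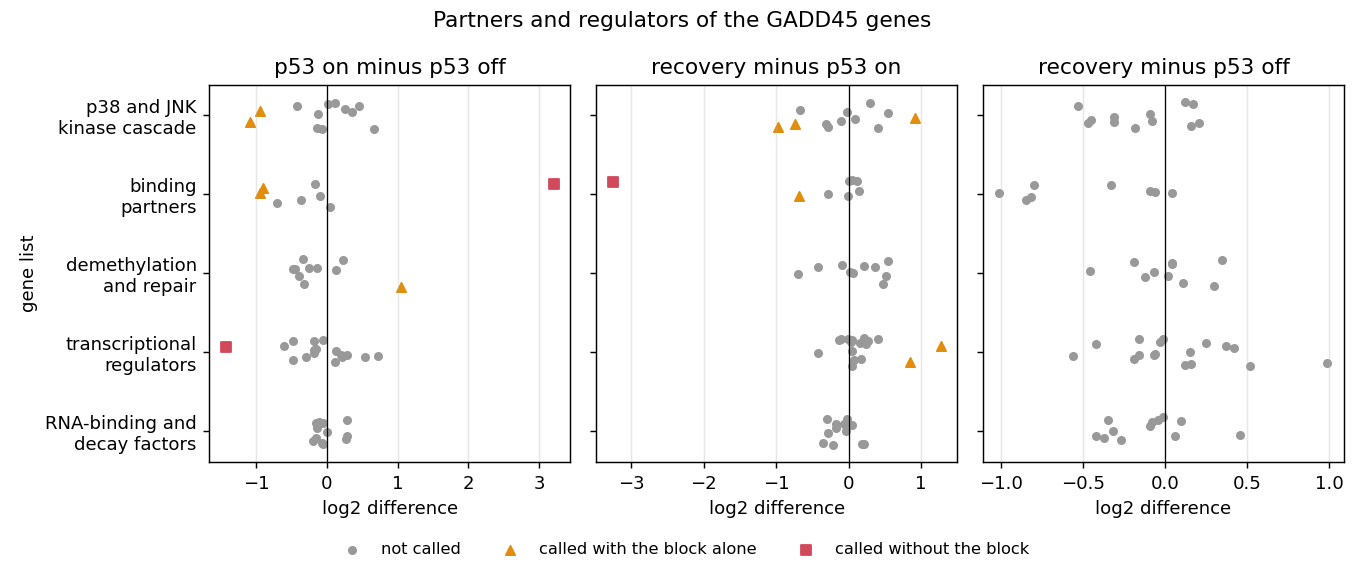
Each point is 1 tested gene of the list named on the vertical axis, with its log2 difference on the horizontal axis (scales differ between panels), for p53 on minus p53 off, recovery minus p53 on, and recovery minus p53 off. Squares are genes called without the replicate block (CDKN1A and BRCA1), triangles those called with the block alone and circles the rest; no gene of these lists was called in recovery minus p53 off, where the block called 0.599% of all genes.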

How the data were processed

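The authors deposited log2 signals per exon-level probe set; this scale was judged from values of -0.85 to 13.14. Per the labels' protocols, 100 ng of total RNA was labelled with the Affymetrix whole transcript kit. As for the summarising program, background step, normalization and genome build, each is not given in the sources used here. In total the table lists 257430 probe sets; the 224320 with a single gene symbol entered the analysis, leaving out 10159 with several symbols and 22951 with none. Gene values were medians of probe sets, and genes in the lowest 25% by mean signal were left out. Groups were compared with limma 3.58.1 (R 4.3.3), lmFit and eBayes on 3 groups without a block. The script was tested on simulated data with independent noise on each array. Those data held no deviation shared within an experiment, so that test does not cover the pairing of these arrays. Arrays give no read depth; their number limits precision.

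Samples of the same experiment number ("expt" in the labels) were treated as pairs for the block; they deviated together from their group means (correlations across genes 0.496, 0.551 and 0.63), and blocked values are printed where they change a call.

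Members and lists were chosen with earlier results of these data known. Named genes were the members, called list members (or the smallest p), and the 5 genes nearest to a called member, small RNAs, pseudogenes and uncharacterised loci left out; others are marked.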

Additional observations from a re-analysis of the deposited data

How the results depend on the processing

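GADD45A for p53 on minus p53 off stayed called under every alternative run. Its fall in recovery kept its direction in all of them and was not called with only the 2 groups compared (-3.12, adjusted p = 0.0503) or in 5 of 6 fits without 1 array (-3.17 to -3.06). GADD45B and GADD45G were called under no alternative. GADD45G was left out when the lowest 50% of genes were removed. Without 1 array, GADD45B for p53 on minus p53 off ran from -0.05 to 0.16, GADD45G from -0.42 to 0.10 for recovery minus p53 on and from -0.22 to 0.31 for recovery minus p53 off. The replicate block changed no call of the 3 members. With it, GADD45A had an adjusted p of 2.7e-05 for the rise and 0.000117 for the fall (limma). That fit called 11.5% and 7.24% of all genes in these comparisons.

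Genes called for p53 on minus p53 off numbered 208, or 1607 with the replicate block, 113 without the dim filter, 478 with the mean of probe sets, 50 with only the 2 groups compared, and 3 to 50 without 1 array. For recovery minus p53 on they numbered 60, or 1015 with the block, 182 with the mean of probe sets, 0 with only the 2 groups compared (limma; 1720 of 14025 genes had an unadjusted p under 0.05 with all arrays) and 0 to 4 without 1 array. For recovery minus p53 off they numbered 4, or 84 with the block and 1 to 3 without 1 array.

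Alternatives for lists and probe sets were chosen after seeing the data. List members called for p53 on minus p53 off numbered 2, or 7 with the block, 1 without the dim filter or with only the 2 groups compared, and 0 to 1 without 1 array. For recovery minus p53 on they numbered 1, or 7 with the block, 2 with the mean of probe sets, 0 with only the 2 groups compared and 0 to 1 without 1 array. With an intensity trend, 5 GADD45 probe sets were called higher for p53 on minus p53 off and 1 lower for recovery minus p53 on, against 0 and 0. Over all 224320 probe sets that setting called 148 (0.066%) and 10 (0.00446%).

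Some uncalled differences changed sign. With the mean of probe sets, recovery minus p53 on was -0.16 for AURKA, -0.11 for CDC2 and 0.14 for TIAL1. Without 1 array, p53 on minus p53 off ran from -0.36 to 0.09 for HNRNPD and -0.15 to 0.01 for TIAL1. Recovery minus p53 on ran from -0.75 to 0.16 for CCNB1, -0.65 to 0.87 for CDC2 and -0.05 to 0.02 for PCNA. Recovery minus p53 off ran from -0.33 to 0.01 for BRCA1, -0.14 to 0.02 for CDKN1A, -0.30 to 0.18 for GDF15, -0.64 to 0.28 for MAP3K5, -0.01 to 0.19 for MDM2 and -0.20 to 0.02 for SMG6. The cause of these changes was not tested.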
